A study of Mus musculus with 6 samples.

Results

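The Ighv9 genes, a small family of mouse immunoglobulin heavy-chain variable (V) genes also known as VGAM3.8, were followed in VDJ-seq libraries, which sequence V, D and J gene joins in genomic DNA. Members were the sequences whose first called V gene had a name starting with Ighv9, alleles merged. They were 8729 of 228609 sequences, under 6 called names of 176 V genes. The DNA came from the spleens of 12-week-old C57BL/6 mice, enriched for B cells by removing other cells on magnetic columns. There were 6 libraries, each the only one of its group. A dose series used 500 ng, 1 µg, 2.5 µg and 5 µg of DNA, and a pair labelled Q5_Q5 and Q5_vent differed in DNA polymerases. The labels give neither the DNA amount of that pair nor the animals behind each library. Comparisons between classes of joins were therefore made within each library, and their p-values measure only the spread between libraries, which may be technical. In the fitted models that spread was pooled over all families or genes tested, in part or in full, so it is not that of 1 gene or family alone. It was pooled in full in the family fit of productive against out-of-frame joins.

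A heavy-chain gene is assembled in the developing B cell by joining a D gene to a J gene and then a V gene to the DJ unit. Bases are trimmed from the gene ends and others, called N bases, are added, so that the join differs from cell to cell. A productive join keeps the reading frame and can encode a heavy chain. An out-of-frame join cannot, and is carried along on the other allele of a cell with a productive join, so it is not itself exposed to selection on the heavy-chain protein. The complementarity-determining region 3 (CDR3), encoded across the join, is the most variable part of the antigen-binding site.

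RefSeq places 4 Ighv9 genes on mouse chromosome 12 (GRCm38.p6) among 183 annotated Ighv genes. Ighv9-1 lies at 114093928 to 114094221 between Ighv6-2 and Ighv12-1, Ighv9-2 at 114109001 to 114109430 between Ighv12-1 and Ighv12-2, and Ighv9-3 at 114140692 to 114141122 between Ighv12-2 and Ighv7-3. Ighv9-4 lies apart from the other three, at 114299961 to 114300254 between Ighv3-6 and Ighv3-7. The family spans 206327 bases, with 13 other Ighv genes inside that span. Ighv9-3 ends 158839 bases before Ighv9-4 starts, against 47195 bases from the start of Ighv9-1 to the end of Ighv9-3.

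The V regions are shown because their differences decide which joins could be given to which gene. Each is the sequence that the deposited reads identical to their germline V over its full length of 294 bases share, from 96 reads of Ighv9-1, 155 of Ighv9-2, 956 of Ighv9-3 and 164 of Ighv9-4. Capitals mark the bases that differ from Ighv9-3, 5′ to 3′ on the coding strand.
Ighv9-3: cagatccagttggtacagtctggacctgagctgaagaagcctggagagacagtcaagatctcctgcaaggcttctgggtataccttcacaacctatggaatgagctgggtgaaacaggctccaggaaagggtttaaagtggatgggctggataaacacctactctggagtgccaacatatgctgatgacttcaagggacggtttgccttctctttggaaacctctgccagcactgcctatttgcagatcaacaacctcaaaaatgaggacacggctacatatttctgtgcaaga
Ighv9-2: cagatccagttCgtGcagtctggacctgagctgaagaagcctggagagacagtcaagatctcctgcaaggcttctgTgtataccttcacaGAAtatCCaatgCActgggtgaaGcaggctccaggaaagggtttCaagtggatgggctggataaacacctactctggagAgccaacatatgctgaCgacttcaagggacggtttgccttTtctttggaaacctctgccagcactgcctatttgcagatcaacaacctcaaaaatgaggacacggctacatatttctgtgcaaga
Ighv9-1: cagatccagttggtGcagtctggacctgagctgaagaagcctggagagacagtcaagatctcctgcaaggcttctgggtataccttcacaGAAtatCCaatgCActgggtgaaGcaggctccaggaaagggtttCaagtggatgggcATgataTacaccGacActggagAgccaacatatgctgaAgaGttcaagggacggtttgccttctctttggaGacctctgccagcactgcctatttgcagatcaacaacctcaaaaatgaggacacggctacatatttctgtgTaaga
Ighv9-4: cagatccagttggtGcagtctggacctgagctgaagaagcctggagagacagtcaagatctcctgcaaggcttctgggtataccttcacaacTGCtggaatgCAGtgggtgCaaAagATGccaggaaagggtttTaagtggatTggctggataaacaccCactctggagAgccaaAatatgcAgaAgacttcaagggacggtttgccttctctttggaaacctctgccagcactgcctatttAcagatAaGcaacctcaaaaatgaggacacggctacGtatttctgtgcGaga

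Ighv9-2 and Ighv9-3 differed at 15 of 294 bases (94.9% identity), and the last difference from the 5′ end was C210T (the Ighv9-3 base, its position counted from 1 at the 5′ end of the V region, then the Ighv9-2 base). Their last 84 bases are the same. Ighv9-1 was closest to Ighv9-2, with 12 differences (95.9%), and differed from Ighv9-3 at 20 bases. Ighv9-4 was the most distant member, with 24 differences from Ighv9-3, 28 from Ighv9-2 and 31 from Ighv9-1. At the 3′ end, which takes part in the join, Ighv9-1 carries C290T and ends in GTAAGA, Ighv9-4 carries A291G and ends in GCGAGA, and Ighv9-2 and Ighv9-3 both end in GCAAGA.

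Ighv9-3 was the most frequent member, with 4815 sequences, followed by Ighv9-2 with 1783, Ighv9-1 with 1071 and Ighv9-4 with 1038. The name Ighv9-2-1 was called for 21 sequences and Ighv9-3-1 for 1 sequence, and neither is in the RefSeq table used here. Ighv9-2-1 had no sequence in the 500 ng and Q5_Q5 libraries, where its share could still be up to 0.0345% and 0.0200% (3 counts of the total). These 2 names had too few sequences for any test, and they count only towards the family.

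The share of the family was 4.00%, 4.06%, 4.01% and 3.71% of all sequences at 500 ng, 1 µg, 2.5 µg and 5 µg, and 3.84% in Q5_Q5 and 3.62% in Q5_vent. Ighv9-3 made up 2.13% ± 0.0976 of sequences (SD, n = 6 libraries), Ighv9-2 0.795% ± 0.0543, Ighv9-1 0.481% ± 0.0744 and Ighv9-4 0.454% ± 0.0425. Ighv9-3 was above every other member in every library. Ighv9-1, with 0.390% to 0.586%, and Ighv9-4, with 0.405% to 0.517%, overlapped and did not differ beyond their spread.

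The place of Ighv9-2 in this order rested on calls that named several genes. Of its 1783 sequences 1092 (61.2%) were tied, all of them with Ighv9-3, and the longest V alignment among them was 84 bases, the length over which the genes are identical. A tied call is counted here, as in the files, under the gene named first. Of the Ighv9-3 sequences 950 (19.7%) were tied, all with Ighv9-3-1, while Ighv9-1 had 15 ties and Ighv9-4 none. Over the family 23.7% of calls were tied, against 10.7% for V genes outside it. Among calls naming a single gene, Ighv9-2 was below all the other 3 members, with 0.340% of such sequences against 1.90% for Ighv9-3, 0.520% for Ighv9-1 and 0.511% for Ighv9-4. The shortest single-gene alignment was 31 bases for Ighv9-4, 35 for Ighv9-1, 85 for Ighv9-2 and 121 for Ighv9-3. Shorter alignments of the last 2 genes are therefore left out of that set. With V alignments of at least 130 bases, longer than any tied Ighv9 alignment, Ighv9-2 was again lowest, at 0.361%. Ighv9-3 then had 2.49%, Ighv9-1 0.471% and Ighv9-4 0.446%. Ighv9-2 was 27.0% of Ighv9-2 plus Ighv9-3 over all calls, 15.2% over single-gene calls and 12.7% with the longer alignments.

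Comparing productive with out-of-frame joins shows how far each gene is enriched among the joins that can make a heavy chain. The family was enriched among productive joins, of which it made up 4.33%, against 2.43% of out-of-frame joins. Ighv9-3 was enriched 2.32-fold and Ighv9-1 2.20-fold, Ighv9-4 was depleted, and the value for Ighv9-2 depended on tied calls.

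By library, the family held 4.60%, 4.69%, 4.53% and 4.16% of productive joins at 500 ng, 1 µg, 2.5 µg and 5 µg, against 2.54%, 2.25%, 2.59% and 2.44% of out-of-frame joins. It held 4.40% of productive and 2.36% of out-of-frame joins in Q5_Q5, and 4.17% and 2.13% in Q5_vent. The classes did not overlap, and productive was higher in 6 of 6 libraries. The log2 ratio of shares was 0.81 ± 0.047 (SE), 1.75-fold, with an adjusted p of 9.9e-28 (limma with voom weights, the library as a block, Benjamini-Hochberg over 15 V families). The exact sign-flip permutation test over libraries gave a two-sided p of 0.03125, the smallest that 6 libraries allow, for a mean log2 ratio of 0.89 ± 0.11 (SD). Of the 15 families 26.7% were called higher and 93.3% were called in either direction, so a call by itself sets a family apart little. In order of the signed log2 ratio, Ighv9 came second, after Ighv14 at 1.19 ± 0.057 and before Ighv1 at 0.61 ± 0.012.

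The scale of these ratios depends on which V genes form the total. The 55 called V names with under 20% productive joins made up 25.3% of out-of-frame and 1.01% of productive joins. With shares taken over the other V genes only, the log2 ratios of the 92 V genes tested on both scales shifted by a median of -0.41, and the family stood at 0.40 ± 0.042, still higher in 6 of 6 libraries. On that scale the log2 ratios of the members were 0.81 for Ighv9-3 (1.75-fold), 0.74 for Ighv9-1 (1.67-fold), 0.29 for Ighv9-2 over all calls (1.23-fold) and -0.91 for Ighv9-4 (0.532-fold), all past the threshold.

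**Figure D1:**
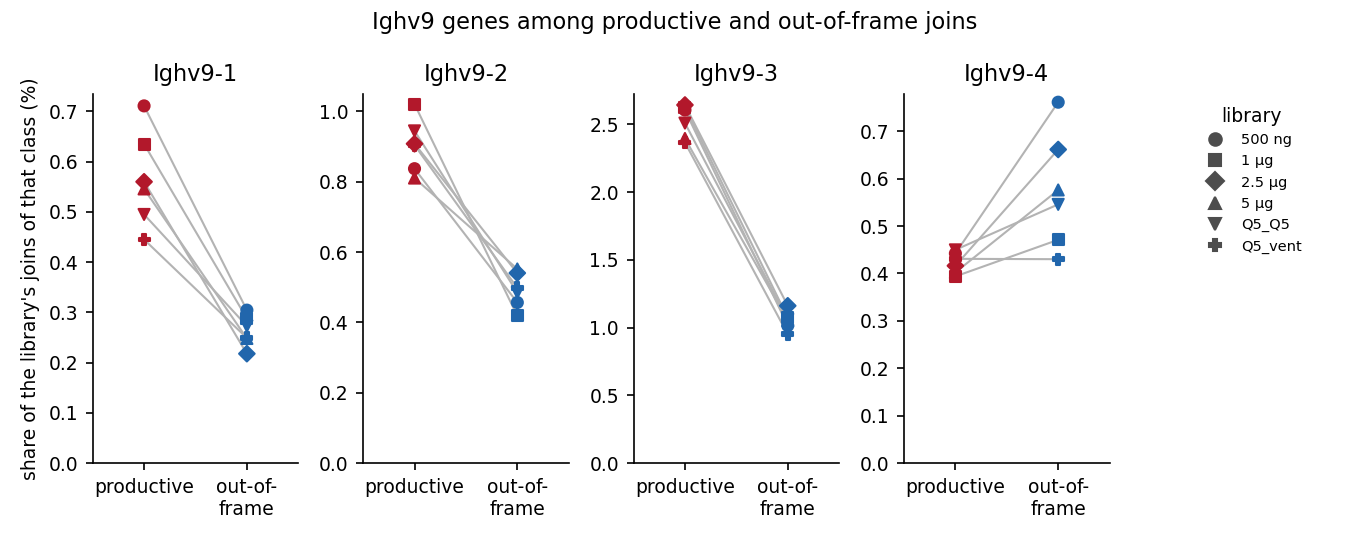
Share of each Ighv9 gene (%, all calls) among productive joins (left, red) and out-of-frame joins (right, blue) of each library, with a line joining the classes of a library and a marker per library. The vertical axes start at 0 and differ between genes. Ighv9-3 and Ighv9-1 are higher among productive joins in every library, and Ighv9-4 is lower in every library except Q5_vent, where the classes are level.

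All 4 members passed the test for all calls, 3 higher and 1 lower, but so did 95.6% of the 113 V genes tested, 50.4% higher and 45.1% lower. The sizes and directions of the members are therefore given rather than the calls.

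Ighv9-3 made up 2.61%, 2.63%, 2.64% and 2.40% of productive joins along the dose series and 2.51% and 2.37% in Q5_Q5 and Q5_vent. Among out-of-frame joins it made up 1.01%, 1.07%, 1.16%, 1.05%, 1.06% and 0.951% in the same order. The classes were far apart in every library. Its log2 ratio was 1.21 ± 0.056, 2.32-fold, with adjusted p = 7.3e-14 over all genes.

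Ighv9-1 made up 0.711%, 0.635%, 0.560% and 0.545% of productive joins along the dose series and 0.495% and 0.445% in Q5_Q5 and Q5_vent. Among out-of-frame joins it made up 0.304%, 0.288%, 0.218%, 0.248%, 0.273% and 0.249%. Productive was higher in 6 of 6 libraries, although only 126 out-of-frame sequences carried the gene. Its log2 ratio was 1.14 ± 0.12, 2.20-fold, with adjusted p = 1.7e-08.

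Ighv9-4 ran the other way. It made up 0.442%, 0.394%, 0.416% and 0.402% of productive joins along the dose series and 0.450% and 0.431% in Q5_Q5 and Q5_vent. Among out-of-frame joins it made up 0.761%, 0.471%, 0.661%, 0.576%, 0.546% and 0.430%. Productive was lower in 5 of 6 libraries and level in Q5_vent. The log2 ratio was -0.50 ± 0.092, 0.706-fold, with adjusted p = 3.9e-05 from 690 productive and 296 out-of-frame sequences. Against in-frame joins with a stop codon, of which Ighv9-4 had 52, the log2 ratio was -0.27 ± 0.30 and did not pass (adjusted p = 0.414). Among out-of-frame joins alone Ighv9-4 was the second member in abundance, at 0.574% ± 0.122 (SD, n = 6), against 1.05% ± 0.0695 for Ighv9-3, 0.492% ± 0.0503 for Ighv9-2 and 0.263% ± 0.0313 for Ighv9-1. The ranges of Ighv9-4 and Ighv9-2 overlapped there, and Ighv9-1 was below every other member in every library over all calls. With single-gene calls Ighv9-2 was below Ighv9-1 at 500 ng (0.228% against 0.342%) and at 1 µg (0.235% against 0.324%).

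Ighv9-2 showed a log2 ratio of 0.71 ± 0.093 over all calls, 1.63-fold, with adjusted p = 5.7e-07. Its calls tied with Ighv9-3 alone held 932 productive and 114 out-of-frame sequences, a ratio of 8.18. Single-gene Ighv9-3 calls had a ratio of 7.28, and Ighv9-3 calls tied with Ighv9-3-1 had 9.51. These sets had unlike V alignments, of 31 to 84, 121 to 294 and 83 to 124 bases in that order. The gene behind the tied calls was not tested. Single-gene Ighv9-2 calls held 504 productive and 148 out-of-frame sequences, a ratio of 3.41. By library these single-gene calls made up 0.216%, 0.302%, 0.373%, 0.334%, 0.320% and 0.389% of productive joins and 0.228%, 0.235%, 0.383%, 0.312%, 0.373% and 0.302% of out-of-frame joins, along the dose series and then in Q5_Q5 and Q5_vent. Productive was higher in 3 of 6 libraries. The log2 ratio of single-gene calls was 0.05 ± 0.12 and did not pass (adjusted p = 0.677), and that of alignments of at least 130 bases was 0.09 ± 0.13 (adjusted p = 0.518). The other members kept their direction under both restrictions, with log2 ratios of 1.24 and 1.09 for Ighv9-1, 1.17 and 1.12 for Ighv9-3, and -0.47 and -0.58 for Ighv9-4.

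**Figure D2:**
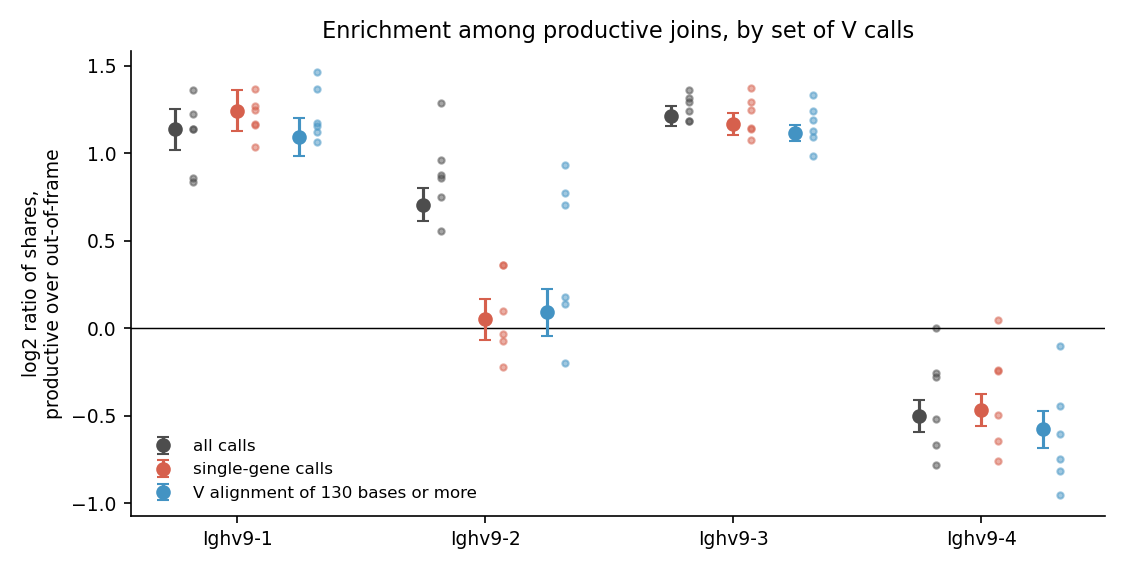
Log2 ratio of shares, productive over out-of-frame, for the 4 members with all calls (grey), single-gene calls (red) and V alignments of at least 130 bases (blue). Large points are fitted values with their standard error and small points the 6 libraries. The fitted value of Ighv9-2 moves from 0.71 with all calls to 0.05 and 0.09 with the restricted sets, and that of Ighv9-4 stays below 0. The Q5_vent points of Ighv9-4 lie at or just above 0 with all calls and with single-gene calls.

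Ighv9 lies among other small V families in the middle of the locus, here Ighv3, Ighv4, Ighv6, Ighv7 and Ighv10 to Ighv15. Of the 27 genes of those families that were tested, 8 were higher among productive joins and 17 were lower, with a median log2 ratio of -1.25, against a median of 0.21 over all V genes tested. Among these genes and the 4 members, Ighv9-3 took rank 3 of 31, between Ighv14-2 at 1.57 ± 0.12 and Ighv14-3 at 1.19 ± 0.099. Ighv9-1 took rank 5, after Ighv14-3 and before Ighv3-6 at 1.03 ± 0.054. Ighv9-3, Ighv14-3 and Ighv9-1 differed from one another by no more than the larger standard error. Ighv9-4 took rank 15, between Ighv10-1 at -0.23 ± 0.055 and Ighv3-1 at -0.73 ± 0.061.

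The 3′ end of the V gene in joins with a D call set Ighv9-1 apart in size from the other members. In Ighv9-1 joins all germline bases of the V end were present in 42.2%, against 82.0% for Ighv9-2, 81.3% for Ighv9-3 and 85.0% for Ighv9-4. By library the Ighv9-1 value was 33.3%, 49.4%, 42.6% and 41.6% along the dose series, and 35.9% and 47.9% in Q5_Q5 and Q5_vent. The lowest library of any other member was 78.2%, so the libraries of Ighv9-1 did not overlap with theirs. Set against all other sequences of the same library, Ighv9-1 was 23.8 points lower (SE 1.38, adjusted p = 3.4e-18). Ighv9-2, Ighv9-3 and Ighv9-4 were 16.3, 15.8 and 19.3 points higher. Of the 112 V genes tested 48.2% were called higher and 41.1% lower, so it is again the size that separates the members.

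Among out-of-frame joins complete V ends made up 40.3% for Ighv9-1, 77.4% for Ighv9-2, 75.7% for Ighv9-3 and 81.6% for Ighv9-4. The difference between members was thus also present in joins that encode no heavy chain. Ighv9-1 joins had lost 1.43 bases on average, against 0.337 for Ighv9-2, 0.349 for Ighv9-3 and 0.272 for Ighv9-4. Losses of 5 or more bases made up 6.32% of Ighv9-1 joins and under 1% for each other member, with 0.470%, 0.458% and 0.709%. The GTAAGA end of Ighv9-1 was found in no other of the 95 V genes with at least 300 sequences and a defined end. The 42 other V genes that share the GCAAGA end of Ighv9-3 had complete ends in 57.4% to 89.5% of joins (median 78.9%), all above Ighv9-1, and 17 of the 95 genes were below Ighv9-1. Added bases that happen to match the germline count as V bases in such an alignment, where trimming and base addition cannot be told apart.

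**Figure D3:**
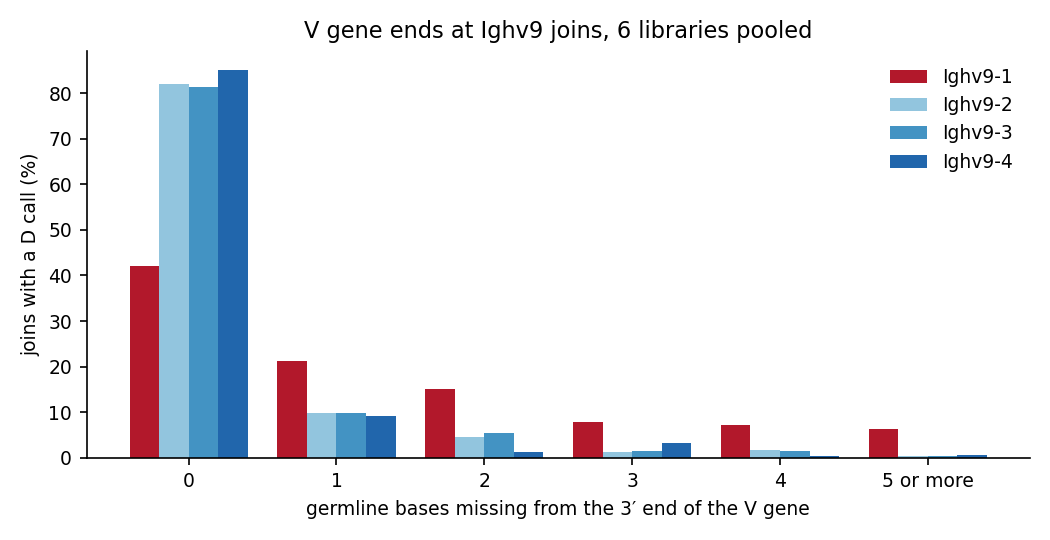
Number of germline bases missing from the 3′ end of the V gene in Ighv9 joins with a D call (horizontal axis) and the share of each gene's joins (%, vertical axis), 6 libraries pooled. Ighv9-1 (red) has a complete end in 42.2% of joins and the other 3 members (blue) in 81.3% to 85.0%.

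For the family, complete V ends were 11.6 points more frequent than in all other sequences (SE 0.469, adjusted p = 7.8e-23). The stretch between V and D, N and P bases together, was 0.217 bases longer (SE 0.0385, adjusted p = 6.0e-07), at 4.56 bases against 4.33 on average over libraries. By member it was 0.294 bases longer for Ighv9-2, 0.269 for Ighv9-3 and 0.232 for Ighv9-4, and -0.218 bases for Ighv9-1, each past the threshold, with adjusted p = 0.0401 for Ighv9-1 and 0.0308 for Ighv9-4. The call of Ighv9-3 held in every leave-one-out fit, and that of Ighv9-2 did not hold with single-gene calls (0.119 bases, adjusted p = 0.393). The call of Ighv9-1 was lost without any 1 of 5 libraries (it held without the 1 µg library, at -0.297 bases) and with equal weights (adjusted p = 0.310), and that of Ighv9-4 without the 500 ng, 2.5 µg or 5 µg library and with equal weights (adjusted p = 0.0969). Of all V genes 40% were called longer and 41.7% shorter there. Joins without any such bases at either junction were 0.458 points less frequent (adjusted p = 0.0032), at 0.887% against 1.49%. The stretch between D and J did not pass the test (0.0379 bases, adjusted p = 0.394). The family passed 4 of 5 such tests, against 80% of all tests of families. The joins without added bases no longer passed when each clone was counted once (-0.278 points, adjusted p = 0.0747).

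CDR3 length, taken over productive joins, differed between members. Ighv9-1 had the shortest CDR3s, at 37.5, 36.9, 36.8 and 36.3 bases along the dose series and 35.6 and 35.8 bases in Q5_Q5 and Q5_vent. V genes outside the family had 37.8, 37.8, 38.0, 37.9, 38.0 and 37.9 bases, so Ighv9-1 was shorter in 6 of 6 libraries. The difference was -1.47 bases (SE 0.198, adjusted p = 2.5e-05). Ighv9-1 CDR3s were shorter than those of V genes outside the family with each J gene, by differences of -1.33, -1.57, -1.43 and -1.02 bases for Ighj1 to Ighj4. Among joins with a complete V end the difference was -0.797 bases, and among the others it was -1.15 bases.

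Ighv9-3 had CDR3s of 38.2 to 38.5 bases, 0.460 bases longer than other sequences (SE 0.0834, adjusted p = 2.6e-04) and longer in 6 of 6 libraries. Ighv9-4 was at 36.6 to 39.4 bases and did not pass (0.122 bases, adjusted p = 0.683). Ighv9-2 was 0.906 bases longer over all calls (SE 0.197, adjusted p = 0.0011), but -0.117 bases with single-gene calls (adjusted p = 0.682). The tied Ighv9-2 and Ighv9-3 calls averaged 39.5 bases, single-gene Ighv9-2 calls 37.6 and single-gene Ighv9-3 calls 38.3. Tied calls are those with short V alignments, and their part in the longer CDR3s was not tested. The 4 members gave 3 calls, against 58.3% of the 96 V genes tested. The family as a whole was 0.269 bases longer (SE 0.0851, adjusted p = 0.0029, longer in 6 of 6 libraries), a test that 86.7% of families passed. It did not pass with single-gene calls (0.155 bases, adjusted p = 0.136).

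**Figure D4:**
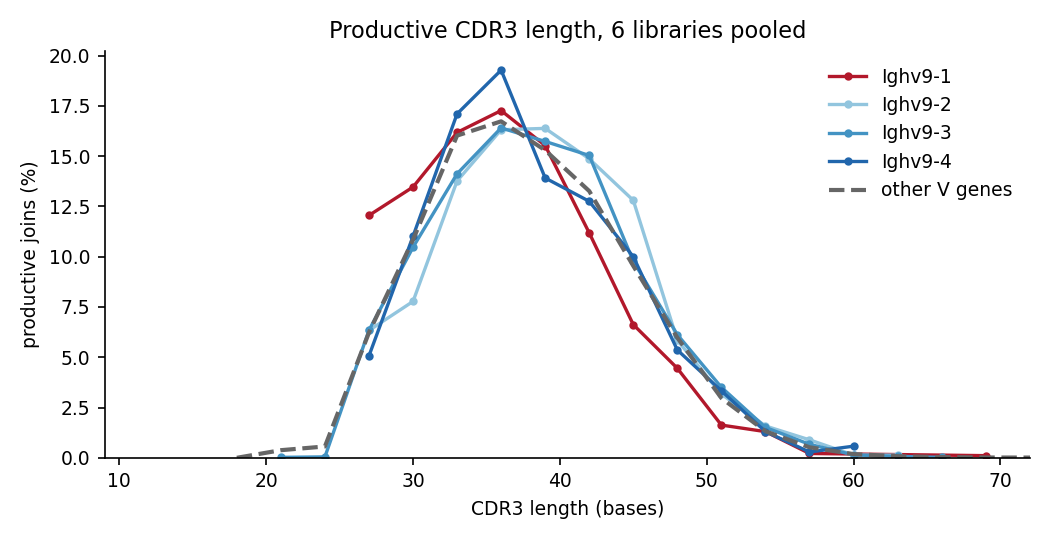
CDR3 length in bases (horizontal axis, multiples of 3) of productive joins and the share of each gene's joins (%, vertical axis), 6 libraries pooled, for the 4 members and for V genes outside the family (dashed). Ighv9-1 has the largest share at 27 and 30 bases and the smallest at 42, 45, 48 and 51 bases.

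Partner genes were compared next, as the share of joins that use each J gene. The clearest partner of any member was Ighj4 with Ighv9-4. Ighj4 is the J gene nearest to the constant region. Ighv9-4 joins used Ighj4 in 31.1%, 46.4%, 32.0% and 34.2% of sequences along the dose series and in 37.7% and 30% in Q5_Q5 and Q5_vent. V genes outside the family used it in 27.4%, 27.5%, 26.4%, 27.1%, 27.5% and 26.2%. Ighv9-4 was higher in 6 of 6 libraries, by 7.32 points (SE 1.40, adjusted p = 7.8e-06), a direction called for 19.1% of the 115 V genes.

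Among productive joins 271 of 690 Ighv9-4 sequences used Ighj4, a share of 39.3% (95% Wilson interval 35.7% to 43.0%), 10.8 points above the rest (SE 1.80, adjusted p = 3.7e-08). Among out-of-frame joins 76 of 296 did, a share of 25.7% (21.0% to 30.9%), 3.19 points above the rest (SE 2.17, adjusted p = 0.659). The test of the difference between the classes gave 7.57 points (SE 3.0, adjusted p = 0.0447, 6 of 6 libraries), a direction called for 19.8% of 101 genes. That call was lost when any 1 of 5 libraries was left out, with values of 6.82 to 9.97 points and adjusted p of 0.063 to 0.124, and it held without Q5_Q5.

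**Figure D5:**
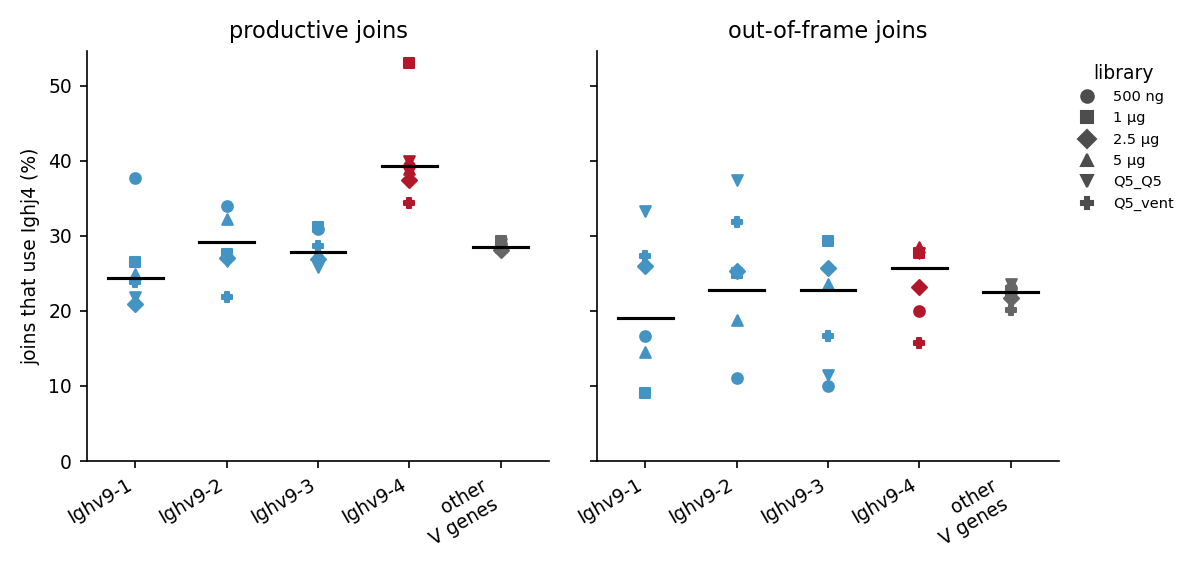
Share of productive (left) and out-of-frame (right) joins that use Ighj4 (%), for each Ighv9 gene and for V genes outside the family, with a marker per library and a line at the value of all libraries together. Ighv9-4 (red) lies above the other V genes (grey) in every library among productive joins, and overlaps with them among out-of-frame joins.

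The other J partners differed less. Ighv9-3 used Ighj3 less than the rest, by -2.48 points (SE 0.616, adjusted p = 3.2e-04), with 18.0% to 23.4% of sequences against 23.3% to 25.5% for V genes outside the family, and was lower in 6 of 6 libraries. With libraries weighted equally that difference was -3.13 points and did not pass (adjusted p = 0.0663). With all libraries together, Ighj3 was in 21.7% of productive Ighv9-3 joins, against 23.2% outside the family. Among out-of-frame joins it was in 28.8%, against 29.8%. Out-of-frame joins were 545 of 4815 Ighv9-3 sequences and 49670 of 219880 outside the family. The part of this mix of classes in the difference was not tested. Ighv9-3 used Ighj2 more, by 1.93 points (SE 0.651, adjusted p = 0.013). The Ighj2 difference no longer passed without the 5 µg library (1.63 points, adjusted p = 0.196), with equal weights (adjusted p = 0.168), with single-gene calls (adjusted p = 0.0502) or without sequences whose J primer tag was marked unclear (1.09 points, adjusted p = 0.171). Ighv9-4 used Ighj1 less (-3.07 points, adjusted p = 0.028) and Ighv9-1 used Ighj4 less (-3.24 points, adjusted p = 0.047). Both calls were lost in leave-one-out fits, that of Ighv9-4 without the 500 ng, 1 µg, 2.5 µg or Q5_vent library (adjusted p of 0.0521 to 0.148) and that of Ighv9-1 when any library other than the 500 ng one was left out. The Ighv9-4 difference was -2.48 points without the 2.5 µg library and -5.13 points without the 5 µg library. With equal weights the Ighv9-1 difference was -1.72 points (adjusted p = 0.552). The members gave 5 calls in 16 tests, against 42% of all V gene tests. The family as a whole passed for Ighj3 alone (-1.59 points, SE 0.449, adjusted p = 0.0014), against 65% of family tests. In productive joins that difference was -1.12 points (adjusted p = 0.029), and in out-of-frame joins it was 0.51 points (adjusted p = 0.885). The value over all joins thus lay outside those of both classes. Out-of-frame joins used Ighj3 more than productive ones, in the family (30.3% against 22.1%) and outside it (29.8% against 23.2%). They were 1239 of 8729 sequences in the family and 49670 of 219880 outside it. The part of this mix in the value over all joins was not tested.

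Among D partners, Ighv9-2 used the DST4 genes (Ighd3), a small D family, more than other V genes did. Their share of Ighv9-2 joins was 6.35%, 6.71%, 9.25% and 9.42% along the dose series and 8.06% and 7.14% in Q5_Q5 and Q5_vent. V genes outside the family had 5.67%, 6.00%, 5.75%, 5.80%, 5.82% and 5.39%. Ighv9-2 was higher in 6 of 6 libraries, by 2.97 points (SE 0.467, adjusted p = 5.3e-04), where 13% of V genes were called higher. With single-gene calls the difference was 4.39 points (SE 0.625), in productive joins 2.43 points and in out-of-frame joins 4.32 points, and each passed. With libraries weighted equally it was 2.07 points and did not pass (adjusted p = 0.0658). Within DST4, Ighd3-2 was in 109 of 1783 Ighv9-2 joins, or 6.11% (5.09% to 7.32%), against 3.39% (3.31% to 3.46%) of joins of V genes outside the family. Ighd3-3 had 1.85% (1.32% to 2.59%), against 1.44%, and Ighd3-1 had 0.785% (0.468% to 1.31%), against 0.936%. In pooled counts, Ighd3-2 was also more frequent than outside the family in Ighv9-3 (4.51%, 3.96% to 5.13%) and Ighv9-1 (4.58%, 3.48% to 6.00%). In Ighv9-4 it was not (2.89%, 2.03% to 4.10%), and over the family it had 4.66% (4.24% to 5.13%). Single D genes were not tested within libraries. Within libraries (limma), the DST4 class did not pass for Ighv9-3 (0.502 points, adjusted p = 0.440) or Ighv9-1 (0.544 points, adjusted p = 0.573). Each was higher in 4 of 6 libraries. Of the Ighv9-2 sequences counted here, 61.2% were tied with Ighv9-3. All these intervals cover counting error only.

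DQ52 (Ighd4), the D gene next to the J genes, was less frequent in the joins of Ighv9-2 (-2.21 points, SE 0.398, adjusted p = 0.0049) and Ighv9-3 (-0.815 points, SE 0.202, adjusted p = 0.020). In out-of-frame Ighv9-2 joins it was found in 2 of 268, or 0.746% (0.205% to 2.68%), against 67 of 1453 productive ones, or 4.61% (3.65% to 5.81%). V genes outside the family also had less DQ52 in out-of-frame joins, 4.11% against 7.01% of productive ones. Without the 5 µg library neither DQ52 call passed (-2.01 points, adjusted p = 0.0625 for Ighv9-2, and -0.596 points, adjusted p = 0.444 for Ighv9-3). The Ighv9-2 call was also lost with single-gene calls (adjusted p = 0.0503), and the Ighv9-3 call without the 2.5 µg library (adjusted p = 0.0688), with equal weights (adjusted p = 0.339) and among genes with at least 300 sequences (adjusted p = 0.0561). The members gave 3 calls in 24 D tests, against 26.8% of all V gene tests. The family passed for 3 of 6 D classes, against 63.3% of family tests. DQ52 was at -1.19 points (adjusted p = 2.6e-04), DST4 at 0.888 points (adjusted p = 0.011) and joins without a D call at -0.696 points (adjusted p = 0.011). Without the 5 µg library the first and last of these did not pass (-0.714 points, adjusted p = 0.131, and -0.772 points, adjusted p = 0.0738), and without the 500 ng library DST4 did not (0.946 points, adjusted p = 0.0501). DST4 also did not pass in productive joins (0.526 points, adjusted p = 0.129), with equal weights (0.785 points, adjusted p = 0.241) or with single-gene calls (0.812 points, adjusted p = 0.100).

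In its 10 shares of J genes and D classes together, the family was most like Ighv1-76, at a distance of 2.03 percentage points, then Ighv1-53 at 2.99 and Ighv1-52 at 3.12. The median distance of the 69 V genes compared was 8.03, and these likenesses are descriptions over 6 libraries.

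A join found in several libraries is shown by its CDR3 bases. Sequences with equal first V call, J call and CDR3 bases were taken as 1 clone. Reads of 1 join can therefore be split where a tied call names another gene first. Tied calls were 23.7% in the family and 10.7% outside it, and their effect on these counts was not tested. Of 8595 Ighv9 clones, 51 (0.593%, interval 0.452% to 0.779%) were in more than 1 library, against 0.789% (0.753% to 0.828%) for V genes outside the family. Ighv9-3 held 37 of them, Ighv9-2 7, Ighv9-1 6 and Ighv9-4 1. The 4 joins found in at least 4 libraries were all productive, and capitals mark the bases aligned to a D gene.
Ighv9-3 to Ighj2, 36 bases: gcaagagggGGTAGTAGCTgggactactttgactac
Ighv9-2 to Ighj4, 36 bases: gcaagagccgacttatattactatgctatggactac
Ighv9-3 to Ighj4, 54 bases: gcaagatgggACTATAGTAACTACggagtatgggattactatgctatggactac
Ighv9-3 to Ighj4, 27 bases: gcaagggagccctatgctatggactac

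The first of these joins carried Ighd1-1 and was read in 14 sequences from 5 libraries, with at most 5 in any library. The others were each read in 6 sequences from 4 libraries. Of these, the longest carried Ighd2-5, and the other 2 had no D call. All 6 sequences of the Ighv9-2 join were single-gene calls. The labels do not say whether libraries shared animals, and how these joins came to be in several libraries was not tested.

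Ighv9 sequences more often matched their germline V gene without a mismatch than other sequences did. The share of fully matching sequences was 93.1%, 94.4%, 94.6% and 94.6% along the dose series and 97.6% and 94.5% in Q5_Q5 and Q5_vent, against 90.5%, 91.4%, 91.2%, 91.7%, 95.4% and 92.04% for V genes outside the family. The difference was 2.92 points (SE 0.252, limma adjusted p = 1.4e-07, higher in 6 of 6 libraries), the highest of 15 families, of which 66.7% were called in either direction. With alignments of at least 130 bases it was 2.77 points (SE 0.377), so it was also present where more of the V gene was read. Ighv9-2, Ighv9-3 and Ighv9-4 passed at 4.48, 2.54 and 3.31 points, and Ighv9-1 did not at 1.33 points (adjusted p = 0.134). With single-gene calls Ighv9-2 stood at 2.05 points and Ighv9-1 at 1.94 points, and both passed (adjusted p = 0.049 and 0.029). Of the 115 V genes tested 45.2% were called higher, 15.7% lower and 60.9% in either direction. A call of higher was thus common and by itself sets a member apart little. In both sets the Q5_Q5 library had the highest share, a difference from Q5_vent that has no replicate check.

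The ends of the dose series and the polymerase pair were set against each other for the family and the 4 members. The family share of 3.71% at 5 µg stood against 4.00% at 500 ng, or 0.927-fold (95% Katz interval 0.833 to 1.03). The share of 3.84% in Q5_Q5 stood against 3.62% in Q5_vent, or 1.06-fold (0.952 to 1.18). Among members, the ratio of 5 µg over 500 ng lay between 0.796 (0.598 to 1.06) for Ighv9-1 and 1.03 (0.800 to 1.33) for Ighv9-2. The ratio of Q5_Q5 over Q5_vent lay between 1.04 (0.825 to 1.32) for Ighv9-2 and 1.12 (0.811 to 1.54) for Ighv9-4. Every interval of these ratios included 1, and 1 of 107 V genes (0.935%) and 0 of 84 (0%) were past 1.5-fold with an interval excluding 1 in these comparisons. Within the dose series, the family share of 3.71% at 5 µg (upper end of the Wilson interval 3.82%) stood against 4.01% at 2.5 µg (lower end 3.85%). That of Ighv9-3 was 2.03% (1.95% to 2.11%) at 5 µg against 2.24% (2.12% to 2.37%) at 2.5 µg, and in both cases the counting intervals did not overlap. This pair of libraries was not a planned comparison. How many other V genes or families had such intervals was not counted, so these values do not set Ighv9 apart. With 1 library per group there is no replicate check and no p-value, and the intervals allow changes up to their ends.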

How the data were processed

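The deposited files hold 1 line per deduplicated VDJ-seq sequence. Trim Galore 0.4.4 and Bowtie2 2.3.2 are named in the submitters' processing notes, with the build mm10. Neither they nor the labels name the program behind the gene calls, but the file headers carry IgBLAST in the names of the CDR3 columns. Each line gives, per the file headers, V, D and J calls, frame flags, segment lengths in bases, a CDR3 and a V identity, which the authors deposited as a fraction. Productive (167455), out-of-frame (50909) and in-frame stop (10245) sequences were counted here by first V call. CDR3 length was read from the CDR3 column, because the junction column was offset against it.

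Depth was 8704 to 112320 sequences per library, and a count of 0 allows 3 counts of the total. Shares of sequences carry 95% Wilson intervals and ratios of shares Katz intervals, for counting error only. Counts of productive and out-of-frame joins were compared with limma 3.58.1 (voom, library as a block, at least 100 sequences). Shares and mean lengths were compared as the difference, within each library, between a family or gene and all other sequences, with limma weighted by number of sequences. In both fits the variances were moderated (eBayes), drawing in part or in full on all families or genes tested. Benjamini-Hochberg adjustment ran over all families or genes and classes of a kind, with calls at 0.05. On simulated counts the first fit recovered most of the changes put in. Those counts had counting error only and no further spread between libraries, so they do not check the calls made on these libraries. Named genes were all members, the 3 most similar V genes among those with at least 1000 sequences and the 3 joins in the most libraries (4, because of a tie). Members, lists and tests were chosen with earlier results of these data known. Alternatives were single-gene calls, 1 count per clone, equal weights, other minimum counts, other classes of joins and each library left out. Alignments of at least 130 bases, in-frame stop joins and the alternatives for the members' junctions and for germline identity were added after seeing the data. Software was R 4.3.3, matplotlib 3.10.9, SciPy 1.17.1, NumPy 2.4.6, pandas 2.3.3 and Python 3.11.15.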

Additional observations from a re-analysis of the deposited data

How the results depend on the processing

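Of 582 alternative values over 49 results, 493 kept their direction and their side of the threshold or stayed within 1.5 times of the count. The enrichment of the family among productive joins stayed between 0.80 and 0.85 (log2) with each library left out, and all 4 members passed in each of those fits. The number of J genes called for the family was 1, and became 0 with equal weights, 2 with single-gene calls, 2 in productive joins, 0 in out-of-frame joins, and 1 to 2 with a library left out (2 without Q5_Q5). The number of D classes was 3, and became 1 with equal weights, 1 with single-gene calls, 0 in out-of-frame joins, and 1 to 4 with a library left out (1 without the 5 µg library). The CDR3 difference of the family was 0.269 bases, 0.155 with single-gene calls and 0.214 to 0.356 with a library left out, and did not pass without the 5 µg library (0.214, adjusted p = 0.0524). The members' J, D and CDR3 calls numbered 11, and 7 to 10 with a library left out (7 without the 5 µg library). The signs turned for Ighj3 in the family in out-of-frame joins (0.51 points), for the V to D stretch of Ighv9-1 in out-of-frame joins (0.000846 bases) and for the CDR3 of Ighv9-2 with single-gene calls (-0.117 bases) and with alignments of at least 130 bases (-0.192 bases). For Ighv9-2 the single-gene set is smaller by the 1092 tied sequences, and for the other changes the cause was not tested. The tests of joins were made within libraries. Between libraries no pairing could be used, because each group has 1 library and the labels give no replicate numbers.

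Depth limits the rarer values. The 500 ng library holds 45 Ighv9-4 and 51 Ighv9-1 sequences, and its out-of-frame class holds 6 of Ighv9-1. The 5 µg library holds 4162 of the 8729 Ighv9 sequences and weighs most in the fits.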
